A study of Mus musculus with 9 samples.

Results

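The genes of cholesterol and fatty acid synthesis were followed in RNA sequencing libraries whose labels name 4T1, a line of mammary carcinoma cells from the mouse. The 33 genes were chosen by symbol and each matched 1 of the 52550 rows of the deposited table. They comprise 20 genes of the sterol branch, of which 8 encode the mevalonate steps, 11 the steps from squalene to cholesterol and 1 a sterol transporter. A further 5 encode regulators and 8 encode enzymes of fatty acid synthesis. All 33 reached 1 FPKM in at least 3 libraries, the minimum for testing that 13990 genes met. FPKM count sequenced fragments relative to transcript length and library size, so that levels can be set side by side between genes. There were 9 libraries in 3 groups of 3, which were control, treatment labelled PD-1, and both LY500307 and PD-1, and the series title places them in a study of tumours that resist checkpoint blockade. LY500307 activates estrogen receptor beta. PD-1 is an inhibitory receptor of T cells that checkpoint antibodies block. The labels give no antibody, dose, time or host, do not say whether cells were cultured or taken from tumours, and do not say whether each library had its own culture or animal. The p-values therefore measure only the spread between these libraries.

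Cells make cholesterol from acetyl-CoA through mevalonate, isoprenoids, squalene and lanosterol. Transcription of nearly the whole chain is switched on by SREBP2, the product of Srebf2, when sterols in the endoplasmic reticulum are low. SCAP then carries the precursor to the Golgi for cleavage, and INSIG proteins hold it back when sterols are high. SREBP1, from Srebf1, acts mainly on fatty acid synthesis, in which citrate is split to acetyl-CoA, carboxylated, built into palmitate, elongated and desaturated. Growing tumour cells use both branches to make membrane.

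The control regions of 3 members are shown, the promoters of an early mevalonate enzyme (Hmgcs1), of the lanosterol synthase (Lss) and of the fatty acid synthase (Fasn). Hmgcs1 was chosen because it alone of the members searched held the sterol regulatory element TCACNCCAC. Lss and Fasn were added after their values were seen. The regions were cut alike. Each is the 250 bases before the RefSeq start site on GRCm38.p6, 5′ to 3′ on the strand of the gene. Hmgcs1 lies at chr13:119690101-119690350 (plus strand), Lss at chr10:76531355-76531604 (plus strand) and Fasn at chr11:120824548-120824797 (minus strand). In the Lss region the last 17 bases are annotated exon on the same strand, since the gene position given below starts at 76531588. Capitals mark the sterol regulatory element TCACNCCAC and the NF-Y box CCAAT, on either strand, where a CCAAT on the other strand reads ATTGG.
Hmgcs1: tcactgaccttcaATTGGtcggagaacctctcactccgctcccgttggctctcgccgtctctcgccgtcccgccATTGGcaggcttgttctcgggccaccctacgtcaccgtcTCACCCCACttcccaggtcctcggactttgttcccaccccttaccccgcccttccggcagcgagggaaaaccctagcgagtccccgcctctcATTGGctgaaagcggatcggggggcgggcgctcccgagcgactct
Lss: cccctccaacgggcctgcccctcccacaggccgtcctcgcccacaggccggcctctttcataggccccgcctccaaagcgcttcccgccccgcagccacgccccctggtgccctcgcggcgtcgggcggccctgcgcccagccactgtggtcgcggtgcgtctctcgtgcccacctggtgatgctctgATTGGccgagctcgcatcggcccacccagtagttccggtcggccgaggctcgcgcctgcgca
Fasn: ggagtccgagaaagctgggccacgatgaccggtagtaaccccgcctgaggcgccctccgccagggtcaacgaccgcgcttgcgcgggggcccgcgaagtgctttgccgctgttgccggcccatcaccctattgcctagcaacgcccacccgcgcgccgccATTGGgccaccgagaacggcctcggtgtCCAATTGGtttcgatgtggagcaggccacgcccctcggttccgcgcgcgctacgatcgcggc
In Fasn, a CCAAT and an ATTGG overlap and are read as 1 run of capitals. RefSeq windows of 300 bases, which reach 50 bases past the start, were found for 26 of the 33 members. The exact TCACNCCAC was present in 1 of the 26, Hmgcs1, against 1.37% of 9104 coding genes tested that have a window. CCAAT was present in 21 of the 26, or 80.8%, against 42.8% of those coding genes. GGGCGG, the Sp1 box, was present in 80.8% against 69.4%, and the E-box CACGTG, which reads the same on both strands, in 19.2% against 11.8%. These matches describe the letters in the windows and do not show that a factor is bound. Only the exact letters were searched, so a missing match does not show that a member lacks a sterol element.

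The libraries held RNA of several cell types. The epithelial keratin Krt18 ran from 621 to 1597 FPKM, and the sum of 8 macrophage markers also ran from 823 to 2695 FPKM. In such mixtures fewer cells of a type and less RNA per cell cannot be told apart. LY500307+PD-1 replicate 2 stood apart. Its 6 epidermis markers summed to 646 FPKM, against 43.4 to 144 in the other 8 libraries. Its 9 adipocyte markers summed to 51.3 FPKM against 2.63 to 8.10, and its 6 skeletal muscle markers to 109 against 13.8 to 29.5. It also had the highest sum of the 8 proliferation markers, 308 FPKM, with PD-1 replicate 2 next at 239 and the others between 131 and 208. Its 10 epithelial markers summed to 3572 FPKM, against 1497 to 2572 in the other 8 libraries. Its 7 fibroblast markers summed to 634 FPKM against 197 to 607, and its 7 neutrophil markers to 56.6, the lowest, against 104 to 704. The part of these cells in the results below was not tested. For the combination, medians of the sterol and fatty acid genes and most members that lead the comparisons are given with and without that library. Medians of most marker lists are given only with it.

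The sterol genes varied between libraries of the same group. A score, the mean over the 20 sterol genes of log2(FPKM + 1) minus the mean of the gene over all libraries, was -0.16, 0.12 and -0.26 in control replicates 1 to 3. It was -0.21, 0.18 and -0.06 in PD-1, and 0.08, 0.32 and -0.02 in the combination. Replicate 2 was the highest of each group, and the groups overlapped. Within its group of 3, replicate 2 held the highest value for 17 of the 20 sterol genes in control, 14 in PD-1 and 16 in the combination. LY500307+PD-1 replicate 2 was the highest of all 9 libraries for 10 of the 20. Such counts were not made over all genes tested, here or for the fatty acid genes below. They therefore do not show a trait particular to these genes. The proliferation markers, scored in the same way over 8 genes, were also highest in replicate 2 of PD-1 (0.36) and of LY500307+PD-1 (0.81), whereas control replicate 1 (0.13) and replicate 2 (0.10) lay close together. Their part in the sterol result was not tested. The fatty acid score was -0.11, 0.05 and -0.01 in control, -0.36, 0.28 and -0.26 in PD-1 and 0.18, 0.25 and -0.02 in LY500307+PD-1. Its spread was widest in the PD-1 group, where replicate 2 was the highest library for 8 of the 8 genes.

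**Figure D1:**
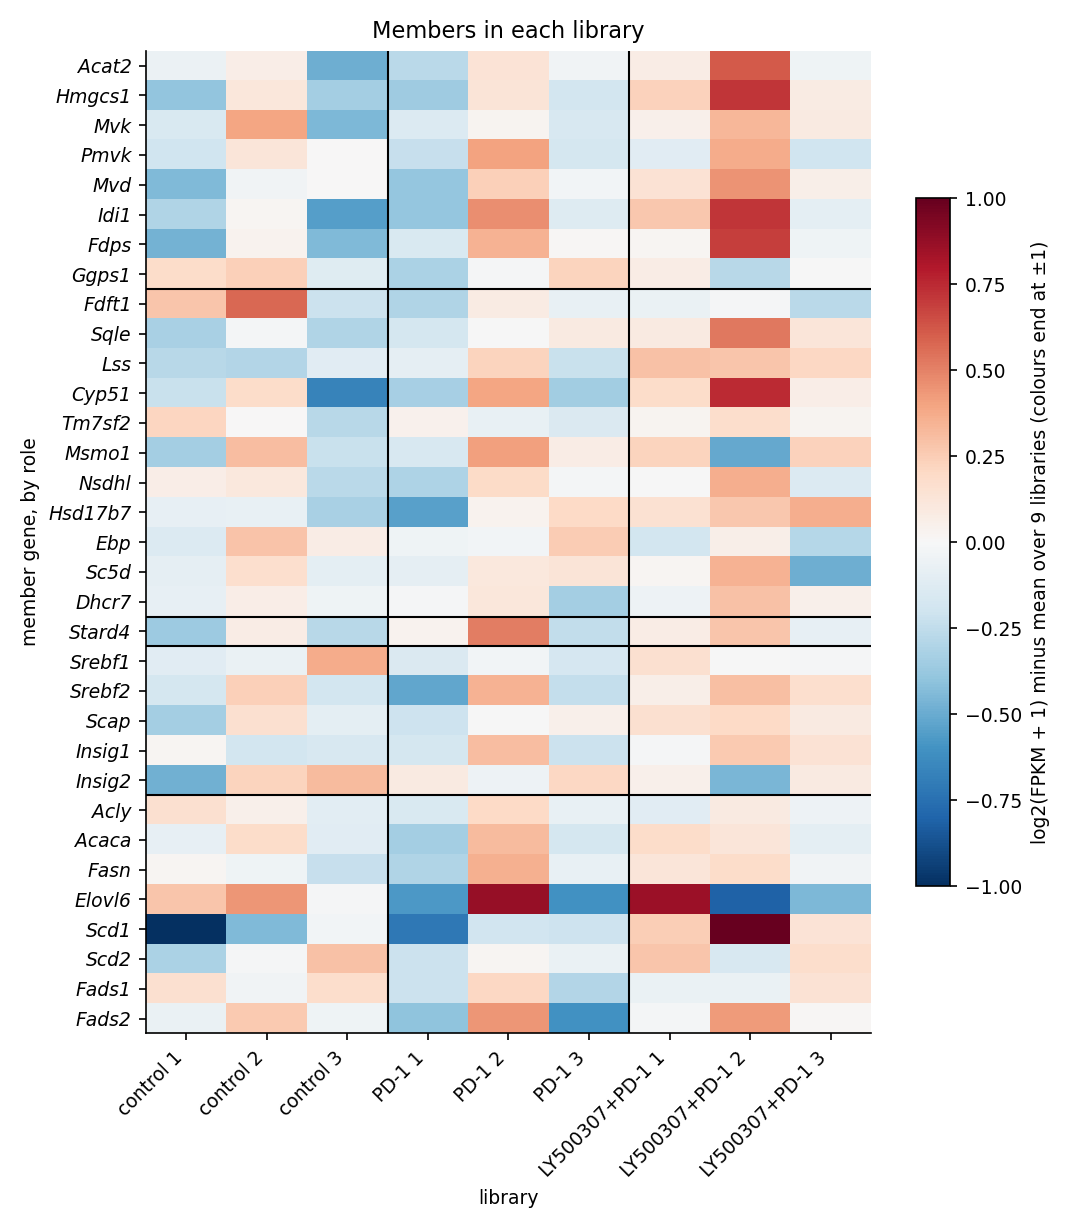
Each cell is log2(FPKM + 1) of a member gene (rows, by role: mevalonate, squalene to cholesterol, sterol transport, regulators, fatty acids) in a library (columns), minus the mean of the gene over 9 libraries. Within each group the column of replicate 2 is the highest for 14 to 17 of the 20 sterol genes, a count not made over all genes. Scd1 in LY500307+PD-1 replicate 2 lies beyond the end of the colour scale.

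**Figure D2:**
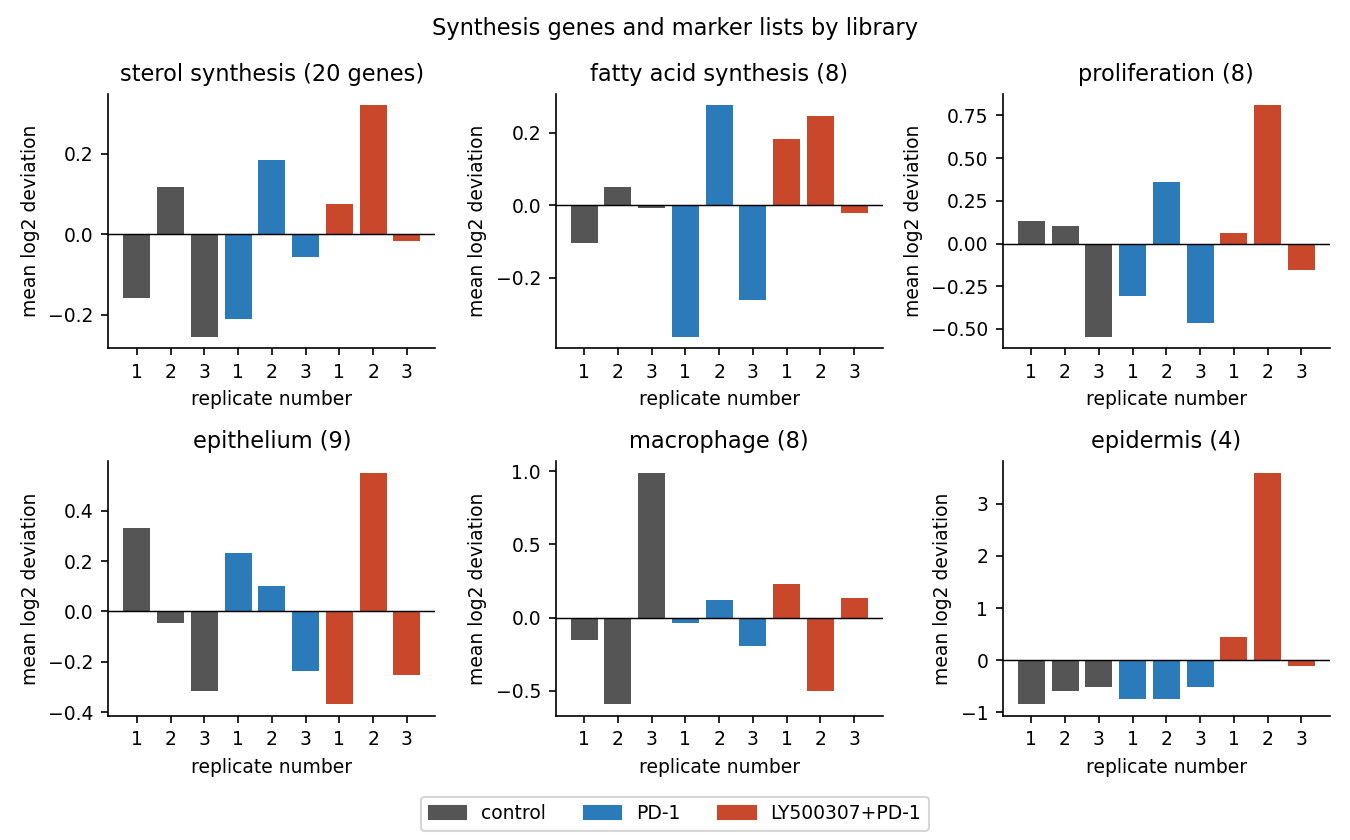
Bars are the mean log2 deviation, on a separate scale in each panel, of 20 sterol genes, 8 fatty acid genes and 4 marker lists in each library, coloured by group and numbered by replicate. Sterol scores run from -0.26 to 0.32 with replicate 2 highest in each group, and the epidermis score of LY500307+PD-1 replicate 2 is 3.60.

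PD-1 treatment alone was compared with control to ask what it did by itself. Sterol genes differed little, with 13 of 20 higher in PD-1 and a median log2 fold change of 0.06, where 48.3% of all genes tested were higher and their median was -0.01. Of the 8 fatty acid genes, 2 were higher and the median was -0.07. The log2 fold changes of the 33 members lay between -0.34 for Elovl6 and 0.36 for Fdps. None of the 33 had an adjusted p (limma, Benjamini-Hochberg) under 0.05, as 0% of all 13990 genes did, and 0 of the 33 had an unadjusted p under 0.05, beside 1.20% higher and 1.24% lower among all genes. The groups overlapped for all 33, while 3.21% of all genes tested were higher and 3.47% lower without overlap. Among the marker lists, erythroid markers were higher for 4 of 4 tested (median 0.76), 2 of them at an unadjusted p under 0.05. Fibroblast markers were lower for 7 of 7 (-0.24), with 0 at that p. The part of these markers in the result was not tested. Without PD-1 replicate 1 the sterol median was 0.20, and without PD-1 replicate 2 it was -0.02. Omitting control replicate 2 gave 0.16, and omitting control replicate 3 gave -0.0034.

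LY500307 with PD-1 was compared with control to ask what the combination did. Of the 20 sterol genes 16 were higher, and their median log2 fold change was 0.25, beside 49.4% of all genes tested and a median of 0.00. The mevalonate steps had a median of 0.38, with 7 of 8 higher, and the steps from squalene to cholesterol a median of 0.11, with 8 of 11 higher. Of the 8 fatty acid genes, 5 were higher and the median was 0.08. No member passed limma's test (0 of 33, and 0% of all genes), the smallest adjusted p being 1.0, and 4 members had an unadjusted p under 0.05, all higher. All genes tested gave 1.78% higher and 2.23% lower at that p. Leaving out 1 library moved the count of members between 2 (control replicate 1) and 8 (control replicate 2). All genes then gave 3.14% and 5.99% in either direction. Groups did not overlap for 5 members, namely Mvd, Sqle, Lss, Hsd17b7 and Scd1, each higher in every LY500307+PD-1 library, where 3.61% of all genes tested were higher and 4.33% lower without overlap. Marker genes differed beside these values, with 0 past the adjusted threshold. Proliferation markers were higher for 8 of 8 (median 0.36), epidermis for 4 of 4 tested (1.92) and skeletal muscle for 3 of 3 tested (0.84). The epidermis genes Krt5 and Lor met the minimum for testing only with libraries of the combination counted. Their direction was therefore partly set by the filter. Epidermis scores were 0.45, 3.60 and -0.12 in replicates 1 to 3 of the combination and -0.84, -0.59 and -0.51 in control. Skeletal muscle scores were 0.29, 1.77 and -0.04 against -0.57, -0.40 and -0.35. Endothelial markers were lower for 6 of 6 tested (median -0.45), 4 of them at an unadjusted p under 0.05 and 4 without overlap. The 7 endothelial markers summed to between 50.9 and 77.5 FPKM in control, 42.9 and 59.9 in PD-1 and 32.7 and 42.4 in the combination. Their part in the result was not tested. Without LY500307+PD-1 replicate 2, 14 of 20 sterol genes were higher, with a median of 0.18. The medians were then 0.22 for the mevalonate steps, 0.0443 from squalene to cholesterol, 0.0059 for fatty acid genes, 0.0441 for proliferation and -0.50 for endothelium. Without control replicate 2 the sterol median was 0.42.

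The combination was compared with PD-1 alone to ask what LY500307 added. Of the 20 sterol genes 14 were higher, and their median log2 fold change was 0.17, beside 51.0% of all genes tested and a median of 0.00. Regulators were higher for 4 of 5 and fatty acid genes for 6 of 8, with medians of 0.16 and 0.12. No member passed limma's test (0 of 33, and 0% of all genes), and 2 had an unadjusted p under 0.05, Hmgcs1 and Scd1, both higher. All genes tested gave 1.19% higher and 1.66% lower at that p. Without LY500307+PD-1 replicate 2 the count of members was 0, where all genes gave 2.84% in either direction. It was 0 without PD-1 replicate 1 (all genes 2.13%) and 6 without PD-1 replicate 2 (all genes 4.75%). Groups did not overlap for 5 members, Mvk, Sqle, Srebf1, Scap and Scd1, each higher with LY500307, against 3.54% of all genes tested higher and 4.06% lower. Without LY500307+PD-1 replicate 2 the sterol median was 0.08, with 13 of 20 higher, and the fatty acid median was 0.16. Without PD-1 replicate 2 these medians were 0.28 and 0.30, and without PD-1 replicate 1 the fatty acid median was 0.0242. Beside these values erythroid markers were lower for 4 of 4 tested (median -1.36), all 4 at an unadjusted p under 0.05. Endothelial markers were lower for 6 of 6 (-0.37) and neutrophil markers for 6 of 6 (-0.73), while proliferation markers were higher for 7 of 8 (0.41). Epidermis markers were higher for 4 of 4 tested (1.72) and skeletal muscle markers for 3 of 3 tested (0.89). As above, Krt5 and Lor met the minimum only with libraries of the combination counted. The medians of these marker lists include LY500307+PD-1 replicate 2 and are not given without it. None of the markers passed the adjusted threshold, and their part in the result was not tested. The 3 comparisons share libraries, so their values stand side by side and are not independent.

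**Figure D3:**
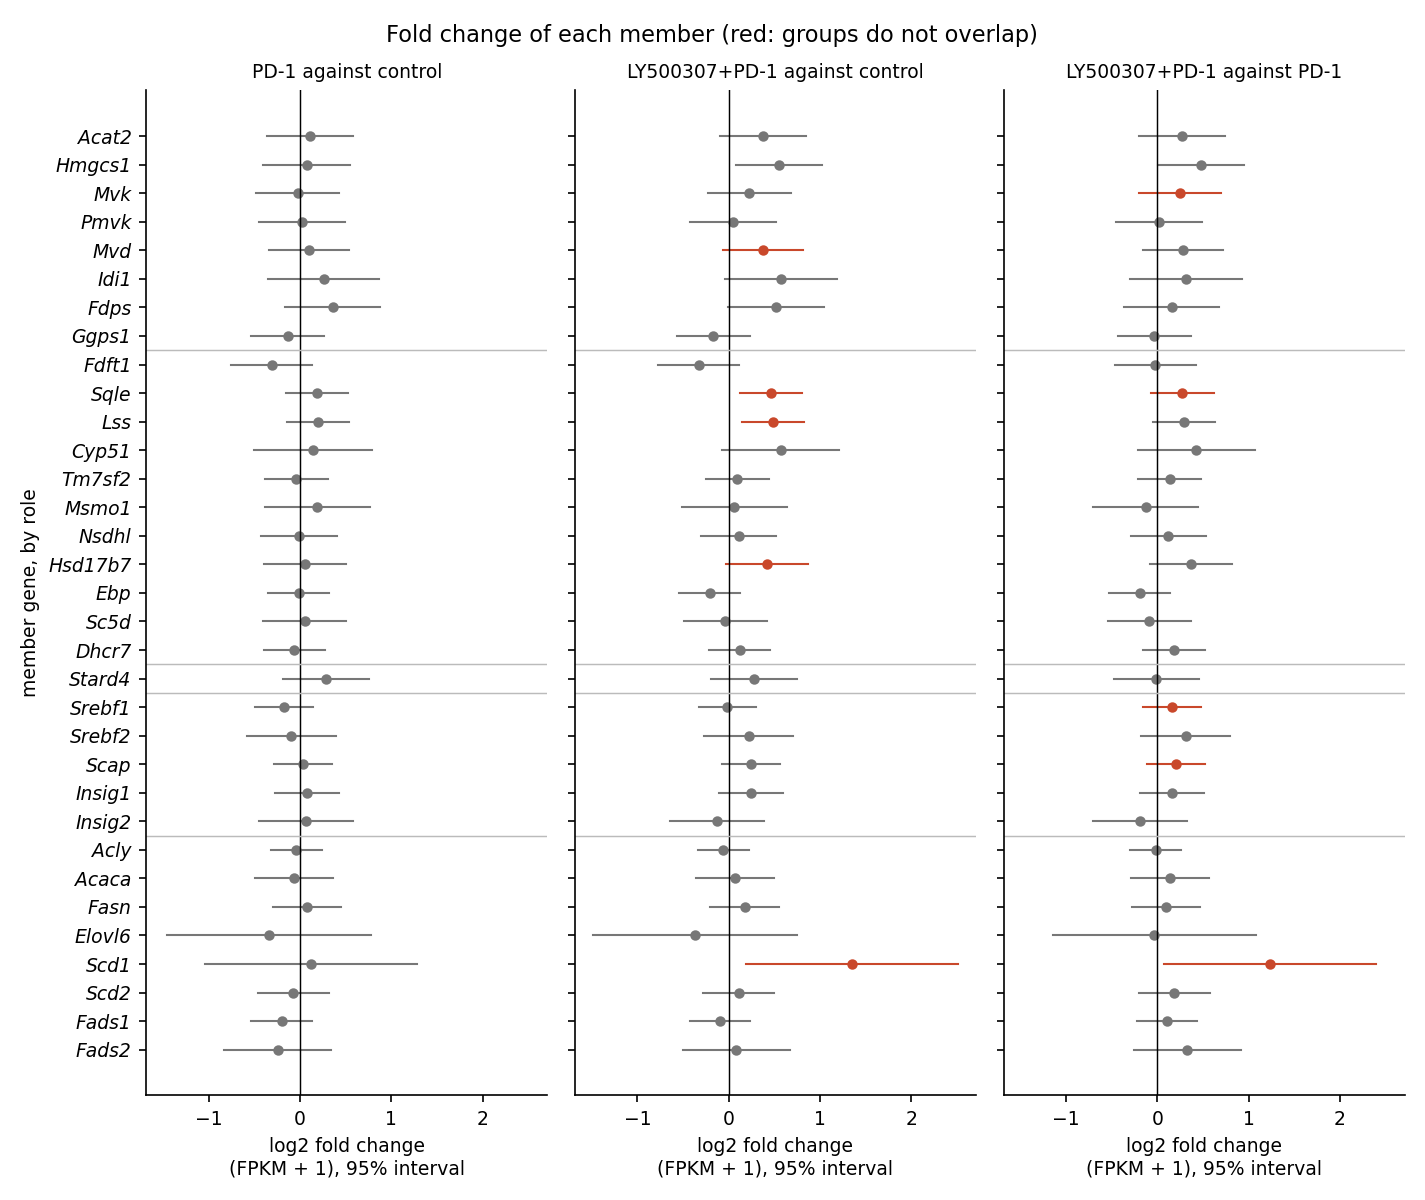
Points are log2 fold changes of FPKM + 1 for the 33 members in the 3 comparisons, and lines are 95% intervals from limma. Red marks members whose groups do not overlap, 0 in the left panel and 5 in each of the others, and the intervals of Elovl6 and Scd1 are the widest.

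Among the mevalonate steps, Hmgcs1, which makes HMG-CoA (ENSMUSG00000093930.2, GRCm38 chromosome 13, 119690379 to 119708260), stood at 12.2, 17.7 and 12.7 FPKM in control. It stood at 12.6, 17.9 and 14.3 in PD-1 and at 19.4, 27.4 and 17.4 in LY500307+PD-1. The combination lay above the other libraries except that its replicate 3 lay below replicate 2 of control and of PD-1. Its log2 fold change was 0.55 (SE 0.21, 95% interval 0.08 to 1.02) for the combination against control and 0.48 (SE 0.21, 0.01 to 0.95) against PD-1, and 0.07 (SE 0.21) for PD-1 against control. Without LY500307+PD-1 replicate 2 the change was 0.37 against control and 0.30 against PD-1. Fdps, which makes farnesyl diphosphate (chromosome 3, 89093588 to 89101959), stood at 13.7, 19.8 and 14.0 FPKM in control. It was at 17.3, 24.9 and 19.5 in PD-1 and at 19.7, 31.9 and 18.8 in LY500307+PD-1. Control replicates 1 and 3 lay below every treated library, and control replicate 2 lay among them. Log2 fold changes were 0.36 (SE 0.23) for PD-1 and 0.52 (SE 0.23) for the combination against control, and 0.16 (SE 0.23) between the treatments. Without LY500307+PD-1 replicate 2 the combination differed by 0.28 from control and by -0.0771 from PD-1, and without PD-1 replicate 2 PD-1 differed by 0.22 from control. Fdps shares 1124 exonic bases on its strand with the gene model Gm43738, which did not exceed 0.507 FPKM, and the processed pseudogene Gm3571, 98.9% identical over 1062 nt, did not exceed 0.569 FPKM.

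The other mevalonate genes followed in part. Acat2, an acetyl-CoA acetyltransferase, averaged 15.7 ± 3.17 FPKM (SD, n = 3) in control, 16.9 ± 2.48 in PD-1 and 20.8 ± 5.58 in the combination, and is 97.7% identical over 1477 nt to its paralog Acat3, so that reads may be split between them. Idi1, the isopentenyl diphosphate isomerase, had the highest log2 fold change of the sterol branch, 0.58 (SE 0.27) for the combination against control. It was 0.37 without LY500307+PD-1 replicate 2. As a ratio of mean FPKM, Idi1 stood at 1.58, below the 1.67 of Lss. The libraries of Idi1 ran from 6.15 to 16.2 FPKM, the highest being LY500307+PD-1 replicate 2. Idi1 has an identical stretch of 684 nt in the pseudogene Gm13502, which reached 5.09 FPKM. Mvd, the mevalonate diphosphate decarboxylase, stood at 7.51, 10.3 and 10.6 FPKM in control against 11.8, 14.8 and 11.0 in the combination, so that the lowest treated library lay just above the highest control. Mvk, the mevalonate kinase, stood at 6.85, 7.80 and 6.73 FPKM in PD-1 against 7.94, 9.84 and 8.21 in the combination, although control replicate 2 was higher than all of these, at 10.4. Pmvk, the next kinase, differed by 0.04 (SE 0.21) on the log2 scale between the combination and control. Ggps1, which makes geranylgeranyl diphosphate for protein prenylation, was lower, by a log2 fold change of -0.17 (SE 0.18).

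From squalene to cholesterol, Lss, which closes the sterol rings (chromosome 10, 76531588 to 76557138), had the smallest unadjusted p of the members against control. It stood at 1.38, 1.37 and 1.68 FPKM in control, at 1.72, 2.39 and 1.47 in PD-1 and at 2.55, 2.50 and 2.33 in LY500307+PD-1. Every library of the combination exceeded every control, and PD-1 replicate 2 lay within the range of the combination. The mean was 1.67 times that of control, the log2 fold change 0.49 (SE 0.15, 95% interval 0.14 to 0.83) and the adjusted p 1.0 in limma. Leaving out each of the 9 libraries in turn gave changes between 0.45 and 0.54. Among the 33 members Lss had the largest share of its variance between groups, 73.0%, which restates the same group differences. The median was 29.6% for the 20 sterol genes and 17.0% for all genes tested, whose highest was 95.9%. Of the members Lss had the lowest median level, 1.72 FPKM, and its exons overlap 4930483K19Rik on the other strand by 381 bases. Whether the authors counted by strand is not given in the sources used here.

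Sqle, the squalene epoxidase and a rate-limiting step of the pathway (chromosome 15, 59315077 to 59331192), stood at 9.51, 12.0 and 9.67 FPKM in control, 10.7, 12.2 and 13.0 in PD-1 and 13.0, 17.9 and 13.3 in LY500307+PD-1. All 3 libraries of the combination lay above all 6 others, narrowly so above PD-1 replicate 3. Its log2 fold change was 0.46 (SE 0.15) against control and 0.27 (SE 0.15) against PD-1, and without LY500307+PD-1 replicate 2 these were 0.32 and 0.13. Hsd17b7, a ketoreductase that acts on sterol intermediates, stood at 2.16, 2.18 and 1.68 FPKM in control, 1.30, 2.42 and 2.85 in PD-1 and 2.72, 3.04 and 3.31 in the combination. Its highest library was LY500307+PD-1 replicate 3, not replicate 2. Log2 fold changes were 0.42 (SE 0.20) against control and 0.37 (SE 0.20) against PD-1. Without LY500307+PD-1 replicate 2 these were 0.42 and 0.36, but the latter was 0.15 without PD-1 replicate 1. Cyp51, the lanosterol demethylase, was among the largest in size, 0.57 (SE 0.28) against control and 0.36 without LY500307+PD-1 replicate 2, but ran from 7.63 to 14.5 FPKM in control alone. Its highest values were 21.9 FPKM in LY500307+PD-1 replicate 2 and 17.0 in PD-1 replicate 2.

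Fdft1, the squalene synthase at the entry to the sterol branch (chromosome 14, 63145150 to 63179578), went the other way. It stood at 14.5, 18.0 and 10.0 FPKM in control, 9.38, 12.5 and 11.2 in PD-1 and 11.2, 11.6 and 9.60 in the combination. Control replicates 1 and 2 lay above all 6 treated libraries, and control replicate 3 lay among them. Log2 fold changes were -0.31 (SE 0.20) for PD-1 and -0.33 (SE 0.20) for the combination against control, and -0.02 (SE 0.20) between the treatments. Without control replicate 2 the changes against control were -0.13 and -0.15, and without control replicate 3 they were -0.52 and -0.54. Its exons overlap those of Ctsb on the other strand by 774 bases. Ebp, the sterol isomerase, was lower by -0.21 (SE 0.15) in the combination against control. Msmo1, a sterol C4 demethylating oxidase, was low in LY500307+PD-1 replicate 2, where it stood at 6.17 FPKM, the lowest of its 9 libraries, against 11.0 in each of the other two of that group. Tm7sf2, Nsdhl, Sc5d and Dhcr7, enzymes of the later reductions, demethylation and desaturation, had log2 fold changes between -0.04 and 0.12 for the combination against control. Tm7sf2 shares 532 exonic bases on its strand with Vps51. Stard4, a carrier of cholesterol between membranes, stood at 4.54, 6.51 and 4.88 FPKM in control, 6.29, 9.15 and 4.99 in PD-1 and 6.49, 7.61 and 5.74 in the combination, with log2 fold changes of 0.29 (SE 0.21) and 0.28 (SE 0.21) against control and overlapping groups. For PD-1 the change was 0.0798 without PD-1 replicate 2.

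**Figure D4:**
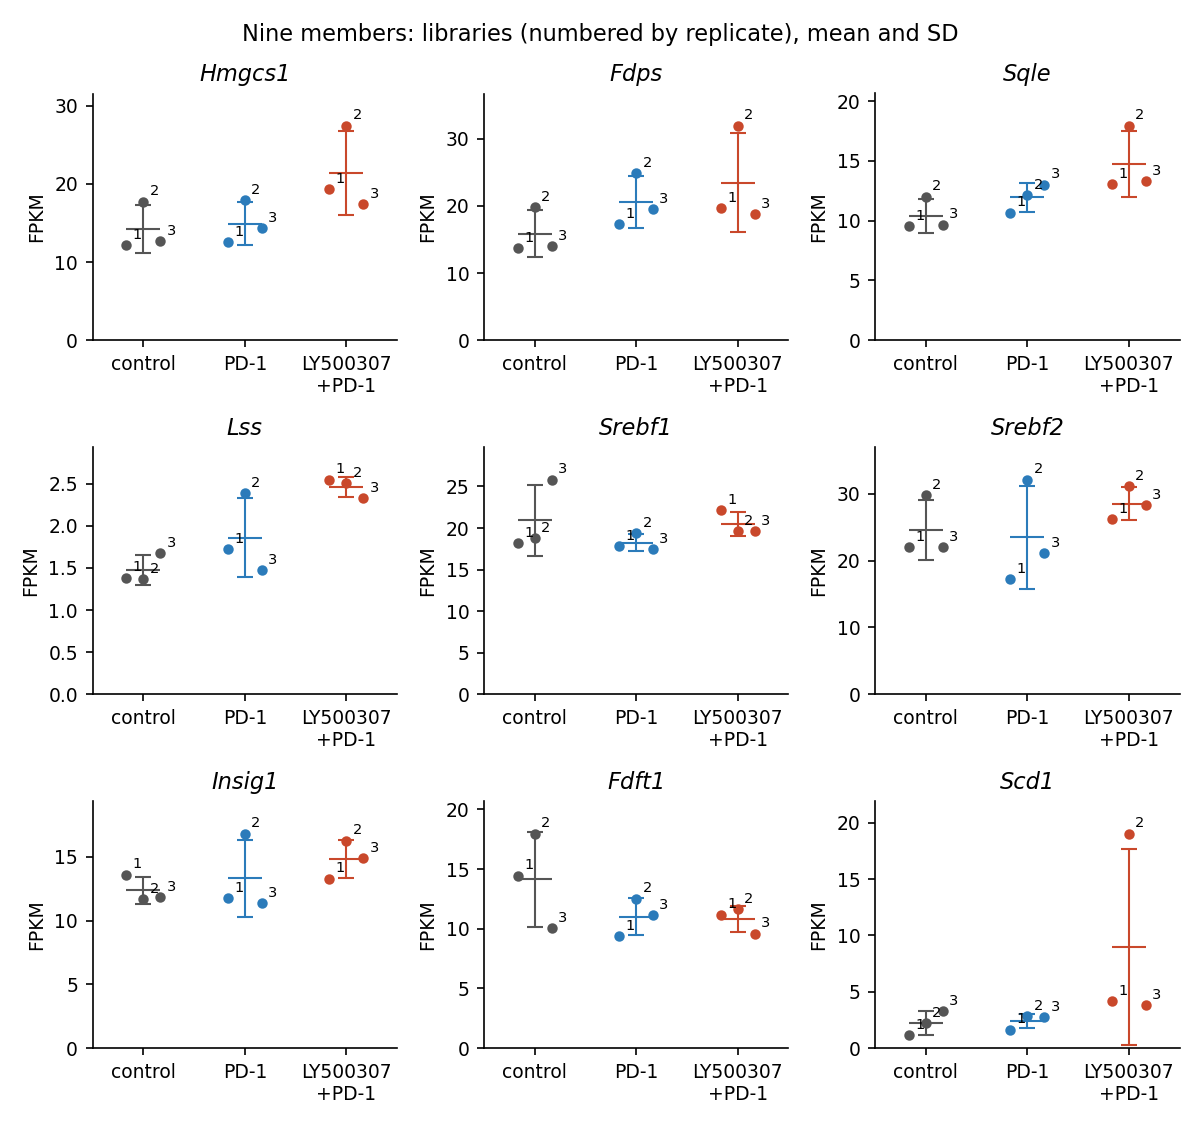
Points are FPKM of 9 members in each library, numbered by replicate, with the mean and SD of each group of 3. Lss, Sqle and Scd1 lie above every control in all 3 LY500307+PD-1 libraries, Fdft1 is highest in control replicate 2, and Scd1 reaches 19.0 in LY500307+PD-1 replicate 2.

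Of the regulators, Srebf2, the SREBP2 gene (chromosome 15, 82147181 to 82205379), stood at 22.0, 29.8 and 22.0 FPKM in control, 17.2, 32.1 and 21.2 in PD-1 and 26.2, 31.1 and 28.3 in the combination. Replicate 2 was again the highest of each group. Log2 fold changes were -0.09 (SE 0.21) for PD-1 and 0.22 (SE 0.21) for the combination against control. Srebf1 (chromosome 11, 60199089 to 60222581) stood at 18.2, 18.7 and 25.8 FPKM in control, 17.8, 19.4 and 17.5 in PD-1 and 22.2, 19.7 and 19.6 in the combination. Here control replicate 3 was the highest library, and the combination lay narrowly above PD-1 without overlap, differing by 0.16 on the log2 scale (SE 0.14, 95% interval -0.15 to 0.48). Scap, the escort of the SREBP precursors, stood at 8.48, 12.4 and 10.2 FPKM in control, 9.42, 11.0 and 11.4 in PD-1 and 12.4, 12.8 and 11.8 in the combination. Its change against PD-1 was 0.20 (SE 0.14) and against control 0.24 (SE 0.14), and 985 of its exonic bases overlap 5830462I19Rik on the other strand.

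The paired inhibitors Insig1 and Insig2 had different patterns. Insig1, itself a target of SREBP, stood at 13.6, 11.7 and 11.9 FPKM in control, 11.7, 16.8 and 11.4 in PD-1 and 13.3, 16.3 and 14.9 in the combination, a log2 fold change of 0.24 (SE 0.16) for the combination against control. Insig2 stood at 13.0, 21.9 and 23.4 FPKM in control, 19.9, 17.9 and 21.6 in PD-1 and 19.3, 13.2 and 19.9 in the combination, a change of -0.13 (SE 0.23). Its lowest libraries were control replicate 1 and LY500307+PD-1 replicate 2. None of the 5 regulators had an unadjusted p under 0.05 in any of the 3 comparisons.

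In fatty acid synthesis, 7 of the 8 genes had an unadjusted p above 0.05 in every comparison, which does not show that they were equal. Acly, which splits citrate, averaged 33.6 ± 3.15 FPKM (SD, n = 3) in control, 32.7 ± 4.39 in PD-1 and 32.1 ± 2.48 in the combination, a change of -0.06 (SE 0.12, 95% interval -0.34 to 0.22) for the combination against control. Acaca, the acetyl-CoA carboxylase, averaged 2.86 ± 0.451, 2.74 ± 0.92 and 3.05 ± 0.400 FPKM in the same order. Fasn, the synthase whose promoter is shown above, stood at 19.8, 18.9 and 16.5 FPKM in control, 15.6, 25.2 and 18.5 in PD-1 and 21.3, 22.2 and 19.0 in the combination. Its change against control was 0.17 (SE 0.17) for the combination and 0.08 (SE 0.17) for PD-1. Elovl6, which lengthens palmitate, ran from 1.02 FPKM in LY500307+PD-1 replicate 2 to 5.48 in PD-1 replicate 2, with large gaps inside the PD-1 and combination groups and an interval of -1.49 to 0.74 against control.

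The desaturases differed from each other. Scd1, the stearoyl-CoA desaturase of fat, liver and sebaceous gland (chromosome 19, 44394455 to 44407879), stood at 1.19, 2.20 and 3.28 FPKM in control, 1.65, 2.82 and 2.77 in PD-1 and 4.16, 19.0 and 3.79 in LY500307+PD-1. All 3 libraries of the combination lay above all 6 others, and replicate 2 lay far above the other two. The log2 fold change against control was 1.35 (SE 0.51, 95% interval 0.19 to 2.51) and 0.68 without that library, and against PD-1 it was 1.23 (SE 0.51) and 0.56 without it. In the same library the adipocyte genes Cfd and Adipoq stood at 29.6 and 2.91 FPKM, against at most 0.869 and 0.26 in the others, and the basal keratin Krt5 at 64.4. Krt5 was also at 11.5 FPKM in LY500307+PD-1 replicate 1 and 1.38 in replicate 3, against at most 2.73 in the 6 control and PD-1 libraries. The part of fat and skin in the Scd1 values was not tested. Scd2, the desaturase with the highest level of all members, ran from 63.6 to 97.9 FPKM and stood at 71.2 in LY500307+PD-1 replicate 2, below the 96.6 and 90.3 of the other two. Its change against control was 0.11 (SE 0.17). Scd2 is 95.5% identical over 623 nt to an Scd1 transcript listed as a processed transcript and not as protein coding. Reads may be split between Scd2 and that transcript. Whether this reached the Scd1 values was not tested. Scd3, 91.4% identical to Scd1 over 1053 nt, did not exceed 0.543 FPKM. Fads1 and Fads2, the delta-5 and delta-6 desaturases of polyunsaturated fatty acids, had changes of -0.10 (SE 0.15) and 0.08 (SE 0.26) for the combination against control. In PD-1 Fads1 stood at 15.3, 20.9 and 14.4 FPKM against 20.2, 17.4 and 20.4 in control, with overlap, and 17.1, 17.1 and 19.9 in the combination.

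A further list of 48 genes of sterol sensing, transport and fatty acid handling had 46 tested members, Thrsp and Mlxipl being below the minimum. None passed limma's test in any comparison (0 of 46, and 0% of all genes). At an unadjusted p under 0.05 there were 0 for PD-1 against control, 2 higher for the combination against control, and 2 higher and 1 lower for the combination against PD-1. All genes tested gave 1.78% higher and 2.23% lower in the second comparison, and 1.19% and 1.66% in the third. The medians were -0.03, 0.04 and 0.11, and the last 2 were 0.04 and 0.11 without LY500307+PD-1 replicate 2. Aacs, which activates acetoacetate for lipid synthesis, stood at 8.80, 10.3 and 8.72 FPKM in control, 8.13, 11.1 and 8.97 in PD-1 and 12.1, 12.7 and 11.2 in the combination, above all 6 others, with a log2 fold change of 0.34 (SE 0.13) against control. Nr1h3, the sterol-sensing receptor LXR alpha, ran from 1.57 to 2.68 FPKM in control against 3.14, 2.65 and 3.35 in the combination, a log2 fold change of 0.44 (SE 0.17), where the groups just overlapped. Cpt1a, which admits fatty acids to mitochondria for oxidation, was the largest against PD-1, at 36.8, 34.9 and 27.7 FPKM in the combination against 21.8, 23.9 and 24.3, a log2 fold change of 0.48 (SE 0.16). Acsl4, which activates arachidonate, stood at 43.4, 49.6 and 42.1 FPKM in the combination against 58.6, 56.1 and 49.4 in PD-1, a log2 fold change of -0.28 (SE 0.11), with replicate 2 of the combination just inside the PD-1 range. Tmem97, a sterol-responsive membrane protein, was highest in LY500307+PD-1 replicate 2, at 33.5 FPKM against 16.8 to 22.1 in the other 8 libraries, and its change against control was 0.34 with that library and 0.11 without it.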

How the data were processed

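The authors deposited 1 table of 52550 rows of versioned Ensembl gene identifiers and 9 library columns. Its values are taken to be FPKM, inferred from the values, since the file deposited names no unit. CASAVA 1.8, Bowtie2, DESeq2 and mm9 are listed, without a role, per the submitters' processing notes. How reads were counted, against which annotation and by strand or not, is not given in the sources used here. Of the identifiers, 99.72% were in GENCODE M21, whose names and GRCm38 positions are printed. Titles gave the groups, since in PD-1 replicates 2 and 3 the treatment label reads PD-2 and PD-3. The FPKM of a library summed to between 348764 and 370214. Only 21.8% to 28.9% of low values lay within 0.02 of a whole-read step, so reads were not recovered, the depth is not given, and the edgeR and DESeq2 tests set for counts were not run.

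The 13990 genes that reached 1 FPKM in 3 libraries were fitted as log2(FPKM + 1) with limma 3.58.1 (R 4.3.3, trend and robust) on 3 groups of all 9 libraries, with Benjamini-Hochberg adjustment and a threshold of 0.05. Fold changes are on that scale, where low genes appear to change less than they do. The fit was tested on simulated data. Members and lists were chosen with earlier results of these data known, and neither sets nor scores were tested. Values in every library are given for the 5 regulators and for the 5 members with the smallest unadjusted p in each comparison. Further members are given where roles needed them, chosen after their values were seen, as were the promoters of Lss and Fasn. Up to 5 other pathway genes with the smallest p were open to naming. RefSeq promoter windows were searched on both strands, and near-identical transcripts (at least 90% over 200 nt) were found with BLAST 2.17.0. The alternatives were quantile normalization, no filter, 0.1 as pseudocount, a fit to only the 6 libraries compared, a replicate block, and each library left out in turn. Counts, list medians and further genes with libraries left out, LY500307+PD-1 replicate 2 first, were added after seeing the data. Python 3.11.15 and matplotlib 3.10.9 drew the figures.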

Additional observations from a re-analysis of the deposited data

How the results depend on the processing

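No member passed at an adjusted p under 0.05 in any comparison under any of the alternatives run (0 of 33 each time). Over all genes, limma's count of calls was 0 in each comparison, and leaving out 1 library gave 0 to 1 for PD-1 against control, 0 to 2 for LY500307+PD-1 against control and 0 to 2 for LY500307+PD-1 against PD-1. Leaving out 1 library moved the sterol median between -0.02 and 0.20, 0.16 and 0.42, and 0.08 and 0.28 in the same order. It moved the fatty acid median between -0.20 and 0.01, 0.01 and 0.14, and 0.02 and 0.30. Leaving out 1 library also turned the direction of some regulators, whose log2 fold changes in PD-1 against control then ranged from -0.33 to 0.10 for Srebf2, -0.0861 to 0.17 for Scap, -0.0882 to 0.17 for Insig1 and -0.19 to 0.21 for Insig2. In LY500307+PD-1 against control they ranged from -0.10 to 0.14 for Srebf1 and -0.38 to 0.0509 for Insig2, and the cause was not tested. The direction of 21, 10 and 11 of the 33 members turned on leaving out some library in the 3 comparisons. Under quantile normalization or the pseudocount of 0.1 the direction of 0 turned. The other alternatives could not turn a direction. With no filter, only the 6 libraries compared or a replicate block, the log2 fold change remains the same difference between group means. With the replicate number as a block, 0 genes were called in each comparison, and 9 members in place of 4 had an unadjusted p under 0.05 in LY500307+PD-1 against control, where all genes gave 5.01% in place of 4.01%, the smallest adjusted p of a member being 0.828 in limma. The labels give a number no shared origin. Correlations of deviations from the group means, across genes, ran from -0.119 to 0.273 (median 0.091) in 9 same-numbered pairs, 3 of them over 0.1. In 18 other pairs they ran from -0.358 to 0.261 (median -0.021), 3 of them over 0.1. Among the 3 libraries of another group, a library correlated best with its own number in 12 of 18 cases. These values do not settle whether the numbers pair the libraries. The main fit used no pairing because the labels give none. Members higher without overlap numbered 5 against control and 6 against PD-1 without LY500307+PD-1 replicate 2, with 5 and 5 with it, while all genes tested gave 8.23% and 9.98%.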
